A study of Mus musculus with 8 samples.

Results

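The Ras family GTPases described here are 5 genes, Hras, Nras, Rras, Rras2 and Mras, out of 23523 genes and unnamed accessions in the deposited table. They were chosen by name, not by their values, and all 5 passed the filter on low counts that kept 14641 genes for testing. The study profiled 5 mouse glioblastomas and 3 normal mouse brains by RNA sequencing. Each tumour arose from a lentiviral vector expressing HrasG12V, a constitutively active form of Hras, together with a short hairpin RNA (shRNA) against p53. They were taken when the mice reached the clinical endpoint, and normal brain was cut away from the GFP-positive tumour under a dissecting microscope. The normal brains are listed with no vector. The strain, the age, the brain region of the normal samples, the cells that received the vector and the promoter that drives HrasG12V are not stated in the sources used here, and neither is the species or the extent of the Hras sequence in the vector. Since no label ties the samples to separate animals, p-values measure only the spread between these samples, which may be technical.

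Ras proteins are membrane-bound switches that are active when they hold GTP and inactive when they hold GDP. Exchange factors load them with GTP, GTPase activating proteins make them hydrolyse it, and active Ras binds effectors such as the RAF kinases, phosphatidylinositol 3-kinases and exchange factors for Ral. H-Ras and N-Ras are classical oncoproteins. R-Ras, R-Ras2 (also called TC21) and M-Ras (also called R-Ras3) form the neighbouring R-Ras group. M-Ras assembles with Shoc2 and protein phosphatase 1 into a complex that activates RAF.

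The last 20 codons before the stop codon are shown for each gene because the members differ more there than near the start, in the tail that anchors the protein to a membrane. Capitals mark the last 4 codons, the CAAX box to which a lipid anchor is attached. Sequences were read from the GENCODE vM21 transcripts of GRCm38 that are paired with the deposited RefSeq accessions, 5′ to 3′ on the coding strand, and are the unaltered mouse genes.
Hras: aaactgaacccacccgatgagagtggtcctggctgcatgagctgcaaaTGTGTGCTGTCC
Nras: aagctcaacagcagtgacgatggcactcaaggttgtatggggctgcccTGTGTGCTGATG
Rras: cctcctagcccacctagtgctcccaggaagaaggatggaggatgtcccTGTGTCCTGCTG
Rras2: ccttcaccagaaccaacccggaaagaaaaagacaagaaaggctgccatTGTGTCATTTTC
Mras: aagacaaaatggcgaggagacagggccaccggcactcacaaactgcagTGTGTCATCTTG
Over these last 20 codons the pairs shared between 25% and 51.7% of bases, against 67.6% to 85.2% over the stretch from codon 5 to codon 40 of Hras and its matches. That stretch holds the effector loop through which Ras proteins bind their targets, and all 5 genes encode the same residues in the loop. Over the whole coding sequence they shared between 61.0% and 75.3%, with Hras and Nras the closest pair. The longest run of identical bases between any pair of coding sequences was 23, found for Hras and Nras and for Rras and Rras2. The coding sequences lie on GRCm38 at chr7:141191351-141192940 (Hras, minus strand), chr3:103058922-103063446 (Nras, plus strand), chr7:45018016-45021361 (Rras, plus strand), chr7:114048167-114117503 (Rras2, minus strand) and chr9:99388408-99411585 (Mras, minus strand). In this annotation no exon of another gene overlaps an exon of the 5. The authors' counts were made on mm9, an older build, so these coordinates are not those of the deposited table.

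Hras, Nras, Rras and Rras2 were higher in glioblastoma than in normal brain, by between 2.80-fold and 7.96-fold, and in each of them the lowest tumour lay above the highest brain. Mras was lower in 4 of 5 tumours and as high as in brain in the other, and its difference did not pass the test. Thus 4 of the 5 genes were called higher and 0 lower in edgeR's quasi-likelihood test (adjusted p below 0.05), a test in which 71.0% of all tested genes were called, 37.1% higher and 33.9% lower. The 4 genes whose groups did not overlap stand against 70.6% of all tested genes, 36.1% higher and 34.5% lower. Changes of this kind were common in these samples, so a call alone does not set a gene apart. Levels between libraries are given below as TMM-scaled CPM, the fragments of a gene as a proportion of the scaled library total.

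**Figure D1:**
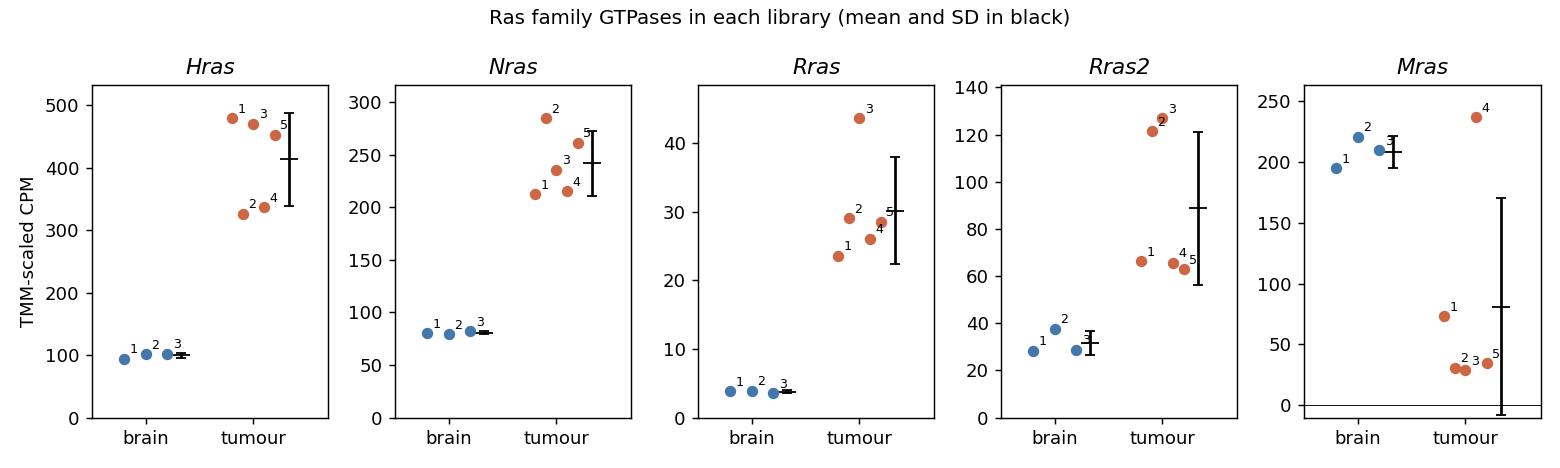
TMM-scaled CPM (y axis, a separate linear scale for each gene) of the 5 Ras genes in the 3 normal brains (blue) and 5 glioblastomas (orange), with the library number beside each point and the group mean ± SD in black. The tumour points of Hras, Nras, Rras and Rras2 all lie above the brain points; Mras in tumour 4 (237 CPM) lies above all 3 brains while the other 4 tumours lie below them, and its SD bar reaches below 0 because of that spread.

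The libraries held between 5490356 and 15564279 fragments. The tissue labels were checked against marker genes. Neuronal markers summed to between 6470 and 7500 CPM in the brains and between 172 and 551 CPM in the tumours, and astrocyte markers to between 5404 and 5915 CPM against 553 to 2268 CPM. Macrophage and microglia markers summed to between 248 and 263 CPM in the brains and between 1109 and 1802 CPM in the tumours, and endothelial markers to between 89.9 and 107 CPM against 219 to 414 CPM. Cycling cell markers summed to between 6.20 and 10.1 CPM in the brains and between 465 and 1298 CPM in the tumours. Called higher were 7 of 8 macrophage and microglia, 5 of 6 endothelial and 6 of 6 cycling markers, and called lower were 6 of 8 neuronal, 5 of 6 astrocyte and 6 of 6 oligodendrocyte markers. No marker was at 0 in every library of a group. The part of these marker shifts in the Ras gene differences was not tested, and in such bulk tissue fewer cells of a type cannot be told apart from less RNA per cell. The shRNA target p53 (Trp53) ranged from 4.74 to 7.21 CPM in the brains and from 2.74 to 5.92 CPM in the tumours, which overlapped (log2 fold change -0.46 ± 0.35 SE, adjusted p = 0.262 in edgeR's test). These levels rest on few fragments, since 3 fragments correspond to between 0.175 CPM (tumour 4) and 0.541 CPM (tumour 2). Counting error is therefore not small for Trp53, and the overlap does not measure how far the shRNA lowered it.

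Hras, the gene supplied by the vector, was at 94.2, 102 and 103 CPM in brains 1 to 3 and the 5 tumours, in order, had 479, 327, 470, 337 and 453 CPM. The tumours fell into higher values (1, 3 and 5) and lower values (2 and 4), and even the lowest was far above the brains. The log2 fold change was 2.05 ± 0.19 (SE), with a 95% interval of 1.60 to 2.51 and an adjusted p of 1.87e-05 in edgeR's test. The highest tumour exceeded the lowest by 1.47 times, and 31.7% of tested genes had a smaller spread between tumours (SD of log2 CPM).

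The rise of Hras was placed almost wholly on one of its 3 RefSeq accessions, NM_008284. That accession was assigned 14.0, 31.2 and 30.3 CPM in the brains and 432, 269, 406, 285 and 375 CPM in the tumours, so the tumours lay far above the brains. Tested by itself it was 14.0-fold higher in the tumours (log2 fold change 3.81 ± 0.34 SE, adjusted p = 1.79e-05 in edgeR's test). NM_001130443, the main accession of Hras in brain, had 74.7, 66.6 and 70.0 CPM in the brains and 45.1, 52.1, 62.7, 47.8 and 77.7 CPM in the tumours. Those groups overlapped, with 4 of 5 tumours below all brains and tumour 5 above them (log2 fold change -0.30 ± 0.19 SE, adjusted p = 0.182 in edgeR's test). NM_001130444 was low everywhere, at 5.55, 4.07 and 2.24 CPM in the brains and 2.60, 5.92, 2.17, 3.80 and 0 CPM in the tumours (log2 fold change -0.46 ± 0.92 SE, adjusted p = 0.670 in edgeR's test). The share of the gene's fragments assigned to NM_008284 was between 14.8% and 30.6% in the brains and between 82.2% and 90.1% in the tumours. The share of NM_001130443 went from between 65.4% and 79.3% to between 9.40% and 17.2%.

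**Figure D2:**
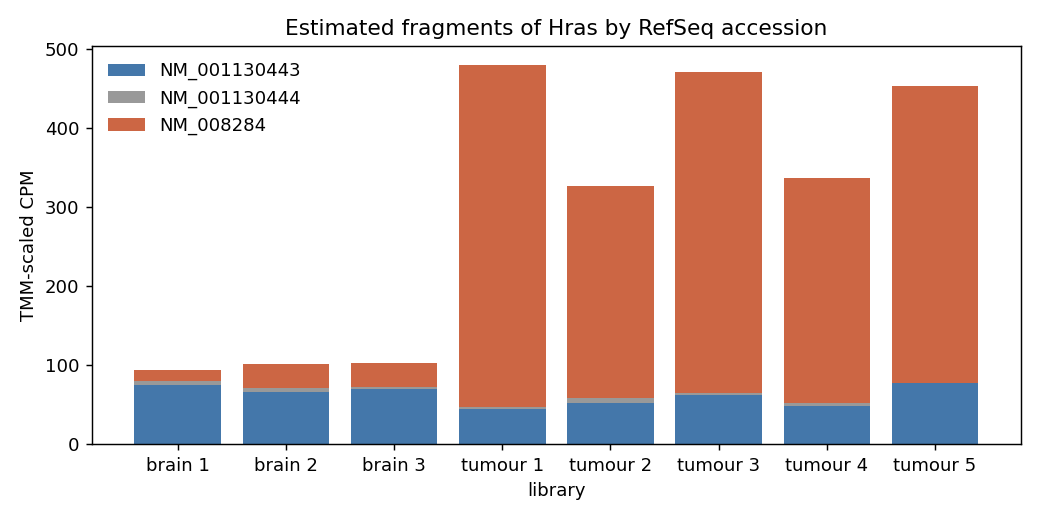
TMM-scaled CPM (y axis) assigned by the authors' software to each of the 3 RefSeq accessions of Hras, stacked in a bar for each of the 8 libraries (x axis). NM_001130443 is the main accession in the 3 brains (66.6 to 74.7 CPM) and stays between 45.1 and 77.7 CPM in the tumours, while NM_008284 is at 14.0 to 31.2 CPM in the brains and 269 to 432 CPM in the tumours.

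NM_008284 and NM_001130443 hold the same coding sequence of 567 bases (189 codons). In the GENCODE models paired with them they differ in the 3′ untranslated region, where NM_001130443 keeps a 147-base segment (chr7:141191195-141191341 on GRCm38, minus strand) that begins 7 bases after the stop codon and that NM_008284 splices out. NM_001130444 carries an extra 82-base coding exon (chr7:141191955-141192036) and has 188 codons, and its coding sequence ends upstream of the codons for the CAAX box of H-Ras. A fragment from within the shared coding sequence fits NM_008284 and NM_001130443 alike and was divided by the authors' software, so single accessions are less certain than the sum over the gene. NM_008284 is the shorter model, with 7.39% fewer estimated counts per unit of FPKM. Fragments of the vector's Hras copy and of the endogenous gene cannot be told apart in this table wherever their sequences match, so no separate level of HrasG12V is given.

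Nras, the other classical Ras gene on the list and one the vector does not carry, was at 80.2, 79.5 and 82.2 CPM in the brains and at 212, 285, 236, 215 and 261 CPM in the tumours. It was the most even of the 5 genes, and its tumours stood well apart from its brains. The log2 fold change was 1.58 ± 0.14 (SE; 95% interval 1.23 to 1.93, adjusted p = 1.89e-05 in edgeR's test), a 3.00-fold difference. The highest tumour exceeded the lowest by 1.34 times, and 14.2% of tested genes had a smaller spread between tumours. The order of the tumours was not that of Hras. Tumour 2 had the highest Nras and the lowest Hras, and tumour 1 the highest Hras and the lowest Nras.

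Rras encodes R-Ras, a GTPase known for its role in integrin activation and in blood vessels. It was the scarcest member in brain and had the largest fold difference of the 4 called genes. The brains had 3.89, 3.90 and 3.54 CPM, resting on 23, 27 and 26 fragments (exact 95% Poisson intervals 14.6 to 34.5, 17.8 to 39.3 and 17.0 to 38.1 fragments, which cover counting error only). The tumours had 23.6, 29.0, 43.6, 26.0 and 28.5 CPM from between 152 and 447 fragments. Tumour 3 was the highest by a clear margin, and the groups did not overlap. The log2 fold change was 2.99 ± 0.26 (SE; 95% interval 2.37 to 3.62, adjusted p = 1.35e-05 in edgeR's test), or 7.96-fold. Of 6 endothelial markers 5 were higher in the same samples, as given above, and their part in the Rras difference was not tested.

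Rras2 encodes R-Ras2, which shares most effectors of the classical Ras proteins. It was at 28.4, 37.7 and 28.8 CPM in the brains and at 66.4, 121, 127, 65.6 and 63.0 CPM in the tumours. Tumours 2 and 3 were at nearly the same high level and tumours 1, 4 and 5 at nearly the same lower level, all above the brains. The log2 fold change was 1.49 ± 0.31 (SE; 95% interval 0.73 to 2.24, adjusted p = 0.00227 in edgeR's test), or 2.80-fold. The highest tumour exceeded the lowest by 2.01 times.

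Mras was the member with the widest spread between tumours. The brains had 195, 221 and 210 CPM and the tumours 73.4, 30.9, 29.0, 237 and 34.5 CPM. Tumour 4 lay above all 3 brains, tumour 1 lay between, and tumours 2, 3 and 5 were close together at the bottom, so that the groups overlapped. The highest tumour exceeded the lowest by 8.18 times, and 95.2% of tested genes had a smaller spread between tumours. Over all 8 libraries the log2 fold change was -1.36 ± 0.68 (SE; 95% interval -3.03 to 0.31, adjusted p = 0.103 in edgeR's test), which is not a call. Without tumour 4 it was -2.31 ± 0.31 (adjusted p = 0.000158 in edgeR's test). limma on the log2 scale of the deposited FPKM with 1 added gave -1.82 over all 8 libraries (adjusted p = 0.0222), and with 0.1 added -1.90 (adjusted p = 0.0219). DESeq2 gave a log2 fold change of -1.37 and no adjusted p for Mras. Whether Mras differed between the groups therefore depended on tumour 4 and on the method.

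Tumour 4 also stood apart in its markers. It had the highest astrocyte marker sum of the tumours (2268 CPM), the highest oligodendrocyte marker sum (717 CPM, against 2928 to 5737 CPM in the brains), and the lowest sums of neuronal (172 CPM), macrophage and microglia (1109 CPM), endothelial (219 CPM) and cycling cell markers (465 CPM). Olig1, a transcription factor of the oligodendrocyte lineage picked after its values were seen, was at 67.8, 45.0 and 43.1 CPM in the brains and at 93.1, 5.59, 4.16, 266 and 5.98 CPM in the tumours. In the tumours Olig1 thus had the same 2 high libraries as Mras, tumours 4 and 1, with the other 3 far lower. Unlike Mras, Olig1 in tumour 1 lay above all brains. The astrocyte marker sum was also highest in tumours 4 and 1, with 1154 CPM in tumour 1 and 553 to 864 CPM in the other 3. The part of these markers in the Mras values was not tested. Hras, Nras, Rras and Rras2 in tumour 4 lay within the range of the other tumours.

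By length-adjusted level (the authors' FPKM, summed over accessions), Mras and Hras led in brain with 51.6 ± 3.41 and 48.3 ± 2.78 FPKM (SD, n = 3). Mras was above Hras in 3 of 3 brains, but their ranges overlapped. Nras (17.9 ± 0.348 FPKM), Rras2 (14.4 ± 2.42 FPKM) and Rras (4.80 ± 0.245 FPKM) followed, with ranges apart. In the tumours Hras stood alone at the top with 208 ± 37.7 FPKM (SD, n = 5), and its range was apart from that of Nras (53.3 ± 7.46 FPKM). Rras2 (40.3 ± 15.3 FPKM), Rras (38.1 ± 10.005 FPKM) and Mras (19.7 ± 21.4 FPKM) came next, and from Nras down each range overlapped with that of the next gene. Nras was above Rras2 in 4 of 5 tumours, Rras2 above Rras in 3 of 5 and Rras above Mras in 4 of 5.

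The summed FPKM of the 5 genes was 129, 144 and 138 in the brains and 368, 335, 410, 332 and 354 in the tumours, with no overlap. Hras made up 35.3% ± 0.922 of that sum in the brains (SD, n = 3) and 66.1%, 50.4%, 58.1%, 50.2% and 63.6% of it in tumours 1 to 5. Mras made up 37.6% ± 0.316 in the brains and 4.90%, 2.32%, 1.74%, 17.2% and 2.36% in the tumours. Even in tumour 4, where its own level matched that of brain, Mras held a smaller part of the summed FPKM than in any brain. The mean share of Rras went from 3.51% to 10.5%, while the mean shares of Nras (13.1% and 14.9%) and Rras2 (10.5% and 11.2%) were close in both groups. These shares are descriptions and were not tested.

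**Figure D3:**
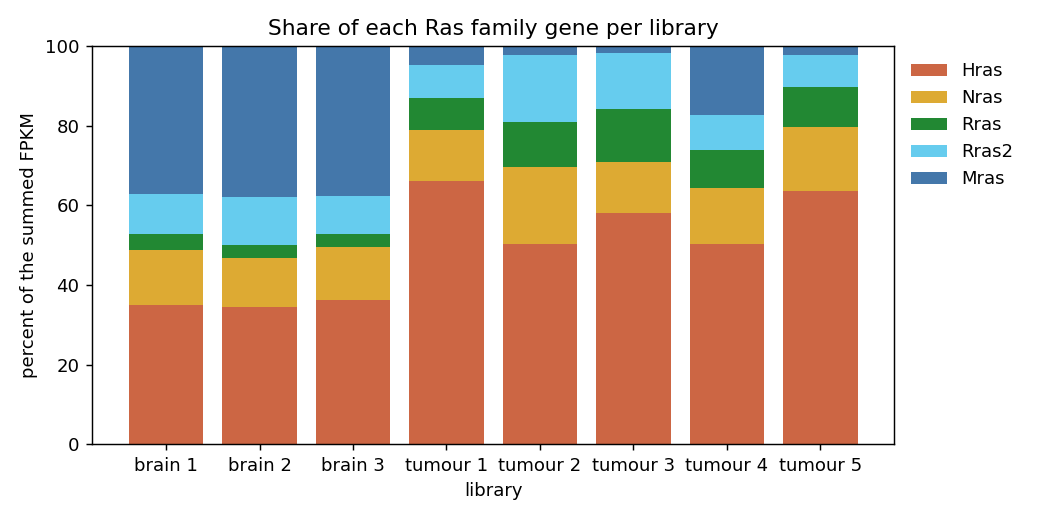
Share of each gene in the summed FPKM of the 5 Ras genes (y axis, percent) in each library (x axis), stacked from Hras at the bottom to Mras at the top. Hras and Mras take similar shares in the 3 brains; in the 5 tumours Hras takes 50.2% to 66.1% and Mras 1.74% to 17.2%.

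Whether the members differed from each other in their change was examined with the log2 ratio of their counts within a library, which does not depend on library scaling. In 7 of 10 pairs the ratios of the brains and of the tumours did not overlap. No such share was computed over all pairs of genes, and among single tested genes it was 70.6%. Each of the 7 pairs holds Mras or Rras, so they are not 7 separate results. Relative to Mras, the difference in log2 ratio between tumours and brains was 3.94 for Hras, 3.48 for Nras, 4.87 for Rras and 3.33 for Rras2. Among the 4 called members, Rras over Rras2 had a difference of 1.54, Nras over Rras one of -1.39 and Hras over Rras one of -0.93. The two-sided p of the exact permutation test was taken as double the smaller one-sided p. Under that rule the smallest p with 3 against 5 libraries is 0.0357, which these 7 pairs reached. After adjustment over 10 pairs it was 0.0510, so 0 of 10 pairs passed. Other rules for a two-sided p can go lower with unequal groups and were not run. For the other 3 pairs the ratios overlapped. Hras over Nras had a log2 ratio of 0.30 ± 0.06 in the brains (SD, n = 3) and 0.76 ± 0.37 in the tumours (SD, n = 5), with an exact permutation p of 0.143 (adjusted p = 0.179). Hras over Rras2 differed by 0.61 (exact permutation p = 0.179, adjusted p = 0.198) and Nras over Rras2 by 0.15 (exact permutation p = 0.643, also after adjustment).

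For each member the 2 genes with the most similar pattern were taken as those with the smallest root mean square difference of log2 CPM, each gene centred on its own mean over the 8 libraries, among 10930 genes with a mean of at least 10 CPM. Nothing about shared function or control follows from such likeness. Hras was closest to Rap1b (0.103), itself a GTPase of the Ras branch, and to Cpne3 (0.113), against a median of 1.104 over all genes searched. Rap1b was at 66.3, 69.0 and 68.3 CPM in the brains and at 283, 226, 290 (289.6), 219 and 259 CPM in the tumours, with the same lower values in tumours 2 and 4 as Hras. Nras was closest to Snx18 and Ost4 (both 0.0762), Rras to Galk1 (0.160) and Myo1f (0.182), and Rras2 to Xrcc6 (0.162) and Dctd (0.183). Galk1, which encodes galactokinase, shared the single high value of Rras in tumour 3 (92.6 CPM, against 62.1 to 67.2 CPM in the others). Xrcc6, which encodes the Ku70 subunit of DNA end joining, shared the split of Rras2, with 72.0 and 74.1 CPM in tumours 2 and 3 and between 43.9 and 46.2 CPM in the other tumours.

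Mras was closest to Fam102a (0.145) and Paqr8 (0.167). Fam102a was at 52.6, 51.9 and 50.2 CPM in the brains and 18.5, 7.40, 6.05, 47.9 and 9.45 CPM in the tumours. Paqr8, a membrane progestin receptor gene, was at 227, 241 and 207 CPM in the brains and 75.2, 41.3, 32.6, 208 and 38.8 CPM in the tumours. As for Mras, both were at or near the brain level in tumour 4, between in tumour 1 and low in the others. Fam102a missed the threshold over all libraries (log2 fold change -1.51 ± 0.62 SE, adjusted p = 0.0551 in edgeR's test) and Paqr8 narrowly passed (-1.50 ± 0.58 SE, adjusted p = 0.0440). Without tumour 4 the values were -2.31 for Fam102a (adjusted p = 0.000240 in edgeR's test) and -2.25 for Paqr8 (adjusted p = 6.97e-05), while leaving out any other library lost the call of Paqr8 (adjusted p between 0.0748 and 0.0997).

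**Figure D4:**
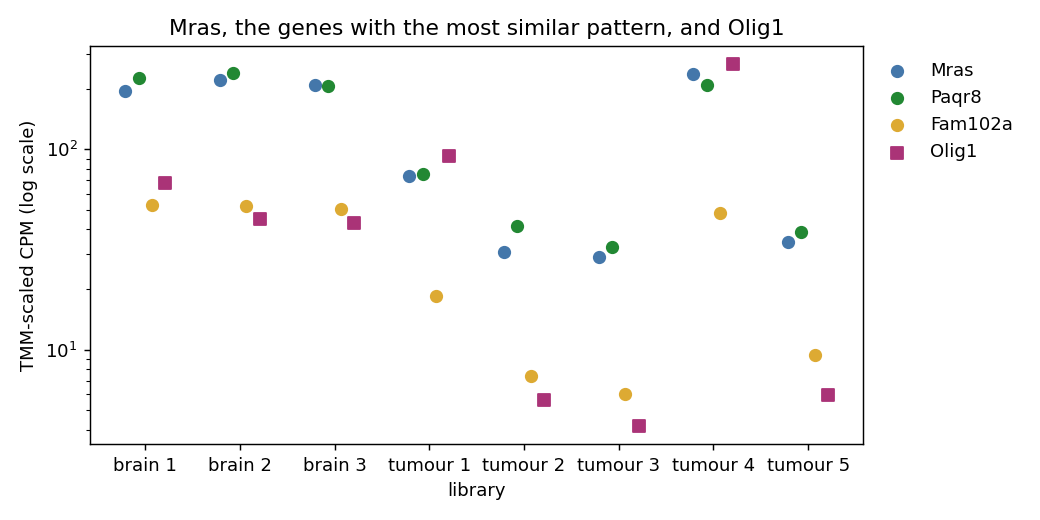
TMM-scaled CPM (y axis, log scale) of Mras, of its 2 most similar genes and of Olig1 in each of the 8 libraries (x axis), with the points of a library drawn side by side. Mras, Fam102a and Paqr8 share high values in the 3 brains and in tumour 4, an intermediate value in tumour 1 and low values in tumours 2, 3 and 5; Olig1 is highest in tumour 4 (266 CPM).

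The genes around Ras were grouped into 8 lists by role. Of 104 list genes tested, 34 were higher, 36 lower and 34 not called, against 37.1% higher and 33.9% lower and a median log2 fold change of 0.06 over all genes tested. Among exchange factors, which activate Ras, 0 of 7 tested genes were higher and 5 were lower, with a median log2 fold change of -3.14. In limma the median was -2.19 on log2(FPKM + 1) and -2.42 on log2(FPKM + 0.1). Rasgrp1, a calcium and diacylglycerol-responsive exchange factor, averaged 1002 ± 195 CPM in the brains and 21.8 ± 7.19 CPM in the tumours (SD, n = 3 and 5). Rasgrf2, a calcium-responsive factor of neurons, averaged 188 ± 8.65 CPM and 13.1 ± 5.20 CPM. Their log2 fold changes were -5.53 ± 0.32 and -3.83 ± 0.30 (SE). Sos1, the exchange factor that acts downstream of growth factor receptors, fell by 1.21 ± 0.14, while the related Sos2 was at -0.16 ± 0.13 and not called. Rasgrp2 and Rasgrf1 were the other genes called lower, Rasgrp3 was not called, and Rasgrp4 was too low to test. Neuronal marker sums fell in the same tumours, as given above, and their part in the exchange factor values was not tested.

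Of 10 GTPase activating proteins, which switch Ras off, 4 were higher and 5 lower, with a median log2 fold change of -0.33. Rasal1 fell by 6.26 ± 0.31 on the log2 scale. Nf1, which encodes neurofibromin, a tumour suppressor in glioma, fell and averaged 392 ± 15.5 CPM in the brains against 176 ± 19.8 CPM in the tumours (SD, n = 3 and 5). Rasa4 rose by 2.76 ± 0.53 and Rasa3 by 1.23 ± 0.21, with the highest Rasa3 in tumour 4 (450.2 CPM). Rasa1 was called higher at 0.76 ± 0.30 with overlapping groups, and its call was lost without any brain or without tumour 1, 2, 3 or 5 (adjusted p between 0.0513 and 0.133 in edgeR's test). Dab2ip, called lower at -0.88 ± 0.25, lost its call without brain 1 (adjusted p = 0.0530).

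Adaptors couple receptors to Ras, and 3 of 11 were higher and 4 lower, with a median log2 fold change of -0.37. Without tumour 4, 6 were lower and the median was -0.85, and without brain 1, 3 were lower and the median was -0.11. The Shc adaptors differed among themselves. Shc1 was between 5.18 and 7.44 CPM in the brains and between 53.2 and 117 CPM in the tumours. It rose by 3.94 ± 0.32 on the log2 scale, whereas Shc2 fell by 1.33 ± 0.18. Shc3 was called lower at -1.80 ± 0.63, but it was at 32.6 CPM in tumour 4 and between 3.78 and 16.3 CPM in the other tumours. Without tumour 4 its log2 fold change was -2.52, and the call was lost without any brain or without tumour 2 or 5 (adjusted p between 0.0527 and 0.0688 in edgeR's test). Irs1, an insulin receptor substrate, rose by 1.20 ± 0.20, and Grb2, which carries Sos to receptors, fell by 1.16 ± 0.12.

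Of 13 genes for lipid modification and trafficking of Ras, 2 were higher, 3 lower and 8 not called, with a median log2 fold change of 0.21. Pggt1b, a subunit of a prenylating enzyme, rose by 0.81 ± 0.17, and Zdhhc9, a palmitoyltransferase for H-Ras and N-Ras, fell by 1.01 ± 0.21. The subunits of farnesyltransferase moved in opposite directions, with Fnta at 0.48 ± 0.17 and Fntb at -0.64 ± 0.20. Fnta lost its call without any brain (adjusted p between 0.0618 and 0.105 in edgeR's test), which left 1 gene higher, and Fntb without brain 1 (adjusted p = 0.0569) or brain 2 (adjusted p = 0.0682). Abhd17a, which removes palmitate from N-Ras, fell by 0.69 ± 0.12.

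Of 17 effectors, 5 were higher, 5 lower and 7 not called, with a median log2 fold change of 0.11. Braf and Araf encode RAF kinases, the first step of the ERK cascade. Braf fell by 2.302 ± 0.139, from a range of 304 to 319 CPM in the brains to 54.5 to 76.4 CPM in the tumours, and Araf fell by 1.14 ± 0.21. Rassf1, a Ras-association protein and tumour suppressor, rose by 2.95 ± 0.34, Pik3cg by 2.01 ± 0.33, and Tiam1, an exchange factor for Rac, fell by 2.66 ± 0.22. The 5 higher effectors became 2 without brain 2 and 3 without brain 3. Among them, the call of Pik3ca was lost without brain 2 (adjusted p = 0.0868 in edgeR's test) or brain 3 (adjusted p = 0.0760), and that of Rgl2 without brain 2 (adjusted p = 0.0508). Rassf5, called lower, lost its call without brain 3 (adjusted p = 0.0558).

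In the cascade from RAF to ERK and its scaffolds, 2 of 10 genes were higher and 4 lower, with a median log2 fold change of -0.29. Map2k1, which encodes a kinase that phosphorylates ERK, fell by 1.12 ± 0.17, while Map2k2, which encodes its close relative, rose by 0.55 ± 0.13. The scaffold Ksr1 fell by 2.18 ± 0.15. In the complex that M-Ras forms, the phosphatase subunit gene Ppp1ca rose by 0.99 ± 0.15, Ppp1cb fell by 1.02 ± 0.18, and Shoc2 was at 0.30 ± 0.18 and not called. Ppp1cc, another phosphatase subunit gene on the list, was low, with means of 3.97 CPM in the brains and 4.06 CPM in the tumours. It was at 0.04 ± 0.30 and not called. The mRNA levels given here do not measure the activity of these kinases.

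Of 26 other GTPases of the Ras branch that were tested, 11 were higher and 8 lower, with a median log2 fold change of -0.11. The Rap1 and Ral genes were on the higher side, with Rap1b at 1.91 ± 0.15, Rap1a at 0.97 ± 0.14, Ralb at 2.70 ± 0.24 and Rala at 0.97 ± 0.16. None of the 3 Rap2 genes was called (log2 fold changes from -0.34 to 0.41). Diras2, a Ras-like gene of the brain, fell by 5.20 ± 0.28, and the related Diras1 fell by 4.77 ± 0.21. Rrad rose by 3.61 ± 0.52, from 0.545 to 1.88 CPM in the brains to 7.34 to 19.8 CPM in the tumours, and by 4.26 without brain 2. Rasl11a was called higher at 3.85 ± 1.37, but its tumours spread from 5.29 to 205 CPM with tumour 4 the highest. Without tumour 4 its log2 fold change was 2.34 (adjusted p = 0.0287 in edgeR's test), and the call was lost without any brain (adjusted p between 0.0843 and 0.0915).

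The last list holds 10 genes from a published signature of MAPK pathway activity. Called higher were 7 and lower 2, with a median log2 fold change of 2.73. Epha2, an ephrin receptor, rose from between 0.433 and 0.846 CPM in the brains to between 27.4 and 101 CPM in the tumours, where 3 fragments correspond to between 0.175 and 0.541 CPM depending on the library. Ccnd1, which encodes cyclin D1, was at 50.9, 55.98 and 52.1 CPM in the brains and at 1878, 1545, 1620 (1620.0), 3661 and 1328 CPM in the tumours. All 5 tumours were far above the brains, and tumour 4 was the highest by a wide margin. Etv4 rose by 3.62 ± 0.16 on the log2 scale, Dusp4 by 3.26 ± 0.20, Spry4 by 3.04 ± 0.23, Dusp6 by 2.42 ± 0.36 and Phlda1 by 1.90 ± 0.27. Epha4 fell by 4.12 ± 0.39, Etv5 by 1.21 ± 0.35, and Spry2 was at 0.96 ± 0.50 and not called. This list had already been described for these samples, so its direction is not independent evidence.

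**Figure D5:**
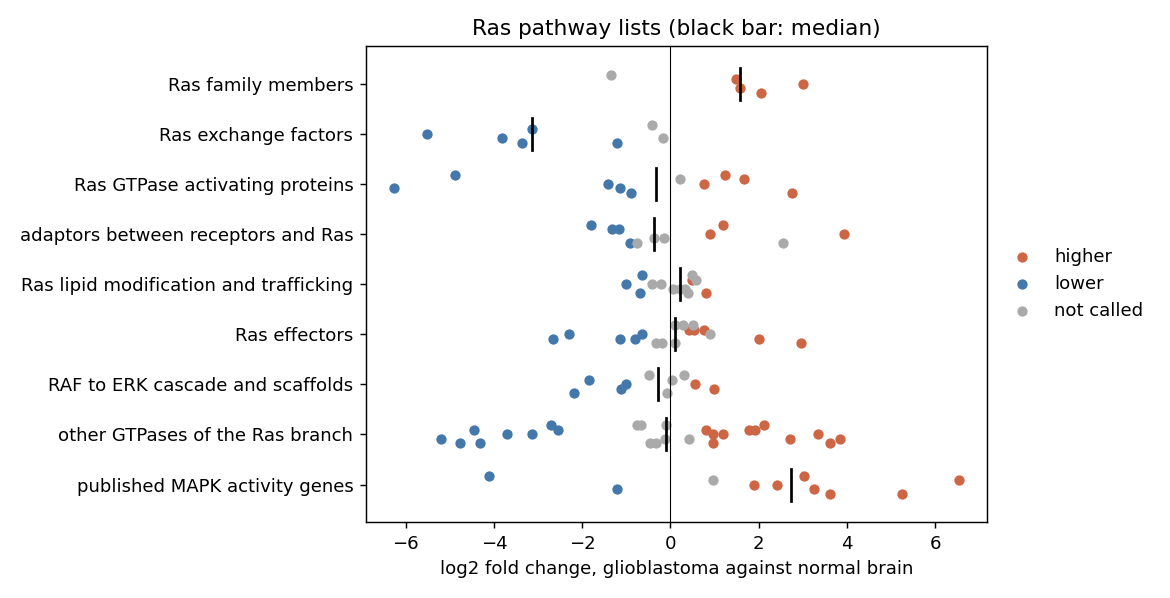
log2 fold change, glioblastoma minus normal brain (x axis), of the 5 Ras genes (top row) and of each tested gene in 8 lists of genes around Ras (other rows). Points are coloured by call (orange higher, blue lower, grey not called), their height within a row has no meaning, and a black bar marks the median of the row. The exchange factors lie at or below 0 with a median of -3.14, the MAPK activity genes lie mostly above 0 with a median of 2.73, and the other lists hold genes on both sides.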

How the data were processed

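Groups (3 normal brains, 5 glioblastomas) follow the source tissue that the labels name. The labels carry no replicate numbers and the file numbers its libraries within each group only, so brains 1 to 3 and tumours 1 to 5 are names in accession order and pair no samples. The kits were RNeasy with DNase for extraction and TruSeq for cDNA libraries, per the labels' protocols. STAR 2.3.0e, Cuffdiff 2.1.1 and the mm9 build are named, per the submitters' processing notes, with no role or settings. Not given in the sources used here were strand setting, filters and annotation release.

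The deposited table covers 30967 RefSeq accessions. Per the file headers, its values are estimated counts of fragments and FPKM scaled by the authors. In the deposited estimated counts, fragments that fit several accessions of a gene were split. For genes with more than 1 accession, 33.2% of accession values and 97.8% of gene sums lay within 0.01 of a whole number, and the sums of all 5 Ras genes were whole in every library. Accessions were therefore summed per gene and rounded. NCBI RefSeq (GRCm38) named 30474 accessions and GENCODE 178 more, and 315 accessions without a symbol kept their identifiers. Hras has 3 accessions and the others 1 each, and no value of theirs carried a status of FAIL. Between replicate libraries the smallest chi-square per degree of freedom was 5.17, so no library was a repeat of another within sampling noise. Counting error is small for the Ras genes apart from Rras in brain, and 3 fragments correspond to between 0.175 and 0.541 CPM.

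The test was edgeR 4.0.16 (TMM factors, default filter on low counts, robust quasi-likelihood F test) with Benjamini-Hochberg adjustment over 14641 genes and a threshold of 0.05. The F statistic gave the standard errors, and the 95% intervals rest on 6 degrees of freedom. Differences between members were tested by exact two-sided permutation over all 56 assignments of the libraries, adjusted over 10 pairs. The p was double the smaller one-sided p. Lists were described by counts and medians, with no list test. Sequences were read from GENCODE vM21 transcripts, which matched all 5 genes.

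The 5 genes, the 8 lists (exchange factors, GTPase activating proteins, adaptors, lipid modification and trafficking, effectors, RAF to ERK cascade, other Ras-branch GTPases, published MAPK activity genes), the marker lists and the rule for named genes were chosen with earlier results of these data known. The rule named the members, up to 2 called genes with the largest change per list and direction whose higher group averaged at least 10 CPM, and the 2 genes with the most similar pattern per member. Other list genes, such as Sos1, Nf1 and Araf, were added for their role after the values were seen. Some genes that the rule named and some sequences are not reported here. Alternatives were upper quartile or RLE factors, scaling by library size only, DESeq2 1.42.0, a filter of 5 CPM in 3 libraries or none, limma 3.58.1 on log2(FPKM + 1) and log2(FPKM + 0.1), accessions tested singly, FPKM or medians for the ratios, and each library left out. The edgeR step was tested on simulated data. Calculations used R 4.3.3, pandas 2.3.3, scipy 1.17.1 and matplotlib 3.10.9.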

Additional observations from a re-analysis of the deposited data

Results flagged for a closer look

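Among 54 sets of 5 tumour values that the text reports, 8 held a tumour that stood apart. Its gap to its nearest neighbour was over 0.71 of the whole range. The nominal rate of that limit is about 1 in 20 sets for independent, normally distributed values. These values were not checked for that, so 8 sets are not shown to be more than chance would give. Tumour 3 stood apart for Rras (43.6 CPM) and for Galk1 (92.6 CPM), the gene with the pattern most like that of Rras. Tumour 4 stood apart for Mras (237 CPM), for the share of Mras in the summed FPKM of the 5 Ras genes (17.2%), for Paqr8 (208 CPM), for the GTPase activating protein gene Rasa3 (450.2 CPM), for the Ras-like gene Rasl11a (205 CPM) and for the cyclin D1 gene Ccnd1 (3661 CPM). In each of the 8 sets the tumour that stood apart was the highest. The sets are not independent, since Galk1 and Paqr8 were chosen for their likeness to members.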

How the results depend on the processing

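Hras, Nras, Rras and Rras2 kept their direction and their call under each alternative run on the summed gene, with log2 fold changes of 2.01 to 2.19, 1.51 to 1.72, 2.72 to 3.12 and 1.33 to 1.63. Split by accession, Hras had the opposite sign for NM_001130443 (-0.30) and NM_001130444 (-0.46), neither called. Mras kept its sign and passed the threshold when tumour 4 was left out (-2.31) and in limma, on log2(FPKM + 1) (-1.82) or log2(FPKM + 0.1) (-1.90). With 1 library left out at a time, its log2 fold change ranged from -2.31 to -1.14, that of Hras from 2.01 to 2.13, Nras from 1.52 to 1.64, Rras from 2.83 to 3.08 and Rras2 from 1.33 to 1.63. The median of all genes, 0.06, was 0.18 with upper quartile factors and 0.20 with library size only. Relative to it, Hras was at 1.99 with all 3 scalings, Nras at 1.52, Rras at 2.92 to 2.93, Rras2 at 1.41 to 1.43 and Mras at -1.42 to -1.37. With library size only or upper quartile factors, 4 in place of 2 lipid modification genes were higher, and with no filter 1 exchange factor was higher. The exchange factor median of -3.14 was -2.42 in limma on log2(FPKM + 0.1), -2.17 in DESeq2 and -2.15 with no filter, the latter pair over 8 genes. Of the other named genes, Shc3 lost its call with library size only, Rasl11a with limma, and Paqr8 with upper quartile factors (adjusted p = 0.0699), library size only (0.0862) or no filter (0.0555). The ratios between members kept their direction in all alternatives. Without 1 library the exact permutation test, with its doubled one-sided p, cannot go below p = 0.0952 (a brain) or p = 0.0571 (a tumour). Leaving out each library in turn, 4796 to 5741 genes were higher and 4431 to 5465 lower. No paired analysis was possible because the labels carry no replicate numbers and nothing ties the numbers in the deposited file across groups. Depth limits Rras in brain, which rests on 76 fragments in all.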
